A study of Homo sapiens with 5 samples.

Results

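The genes described here encode 10 antioxidant enzymes of red cell precursors: the peroxiredoxins PRDX1, PRDX2, PRDX3, PRDX5 and PRDX6, catalase (CAT), the superoxide dismutases SOD1 and SOD2, and the glutathione peroxidases GPX1 and GPX4. They were chosen by symbol, and all 10 were found among the 11976 genes of the authors' deposited table. That table compares RNA-seq libraries of HUDEP-2, an immortalised erythroid progenitor line from umbilical cord blood. ERF, a repressor of transcription from the ETS family, is knocked out in 3 libraries by their labels; the other 2 are labelled wild type, and their titles bear the letters SCR, which no label explains. Clones, guides and cultures are not described in the labels, so each p-value reflects only how far these samples spread, and that spread may be technical. The table holds 1 contrast and no values per library: no per-library level, SD or depth can be given, and whether the groups overlap cannot be seen.

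Which of the groups is higher had to be read from the data. The header names no reference group, so every direction below is stated as higher or lower in the group with more RNA of the γ-globin gene HBG2, called the HBG2-high group (log2 fold change 1.88, SE 0.22, authors' deposited table). The series title links ERF inactivation to γ-globin reactivation, and on that reading the HBG2-high group is the knockout. ERF RNA itself was 1.85-fold higher in the HBG2-high group (log2 fold change 0.89, SE 0.07, edgeR adjusted p = 6.44e-06, authors' deposited table). This is at odds with that reading only if the knockout lowers ERF RNA. The edit is not described, so whether it does is not known. If the labels are instead read through ERF RNA, taken as lower in the knockout, the HBG2-high group is the wild type. The genotype attached to every direction is then exchanged. The libraries carry erythroid RNA: all 14 erythroid markers were listed, with a mean of 6.90 to 12.48 log2 CPM (authors' deposited table). None of 9 lymphoid markers was listed, and of 10 granulocyte and monocyte markers only LYZ was, with a mean of 0.48 log2 CPM (authors' deposited table).

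Red cell precursors load themselves with hemoglobin and iron, and oxygen bound to hemoglobin continually yields superoxide. Superoxide dismutases turn superoxide into hydrogen peroxide, SOD1 with copper and zinc mainly in the cytosol and SOD2 with manganese in the mitochondrial matrix. Hydrogen peroxide is then removed by catalase in peroxisomes and, in mature red cells, the cytosol, by peroxiredoxins through a reactive cysteine, and by glutathione peroxidases through a selenocysteine. Oxidised peroxiredoxins are recycled mostly by thioredoxin, and glutathione peroxidases by glutathione.

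The chemistry of the peroxide-removing members is written in their coding sequences, shown here because paralogues with nearly the same active site include called and uncalled genes. Each stretch of 33 coding bases was read 5′ to 3′ from the principal transcript of GENCODE v29, with the codon of the peroxide-reactive cysteine in capitals. PRDX4, the peroxiredoxin of the endoplasmic reticulum, is a relative outside the 10 genes.
PRDX1: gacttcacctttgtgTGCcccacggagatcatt
PRDX2: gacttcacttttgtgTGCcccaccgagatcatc
PRDX3: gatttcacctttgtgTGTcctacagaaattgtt
PRDX4: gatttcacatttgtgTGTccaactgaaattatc
Over their whole coding sequences, PRDX1 and PRDX2 were identical at 72.4% of 597 aligned bases, and PRDX1 and PRDX4 at 70.5% of 587. In the glutathione peroxidases the capitals mark an in-frame TGA, elsewhere a stop codon, which the selenoprotein machinery reads as selenocysteine.
GPX1: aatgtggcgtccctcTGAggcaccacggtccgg
GPX4: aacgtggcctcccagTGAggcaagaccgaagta
This is codon 49 of GPX1 and codon 73 of GPX4 in these transcripts.

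Of the 10 enzymes, 4 were higher in the HBG2-high group, and no enzyme was lower. SOD2 led with a 1.36-fold difference, followed by SOD1 (1.24-fold), PRDX1 (1.21-fold) and PRDX6 (1.13-fold), in the authors' deposited table. PRDX2, PRDX3, PRDX5, CAT, GPX1 and GPX4 did not pass an adjusted p of 0.05 (edgeR quasi-likelihood test, Benjamini-Hochberg). At an unadjusted p below 0.05 the enzymes counted 4 higher and 0 lower as well. These 4 calls have to be read against a comparison in which calls were common. Of all genes, 50.9% passed the threshold, 24.9% as higher and 25.9% as lower in the HBG2-high group. All 10 enzymes were expressed above the median gene, and among genes of at least 5 mean log2 CPM 56.2% passed, 31.8% as higher. A count of 4 in 10 is therefore near the background, and the median absolute log2 fold change of the 10 genes, 0.13, was below that of all genes, 0.21. The median signed log2 fold change was 0.13 for the 10 genes and -0.0019 for all genes. Erythroid markers leaned the same way: 9 of 14 were higher and 0 lower, also at an unadjusted p below 0.05 (edgeR), and their part in the values of SOD2, SOD1, PRDX1 and PRDX6 was not tested. In bulk RNA, fewer cells of a type and less RNA per cell cannot be told apart.

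**Figure D1:**
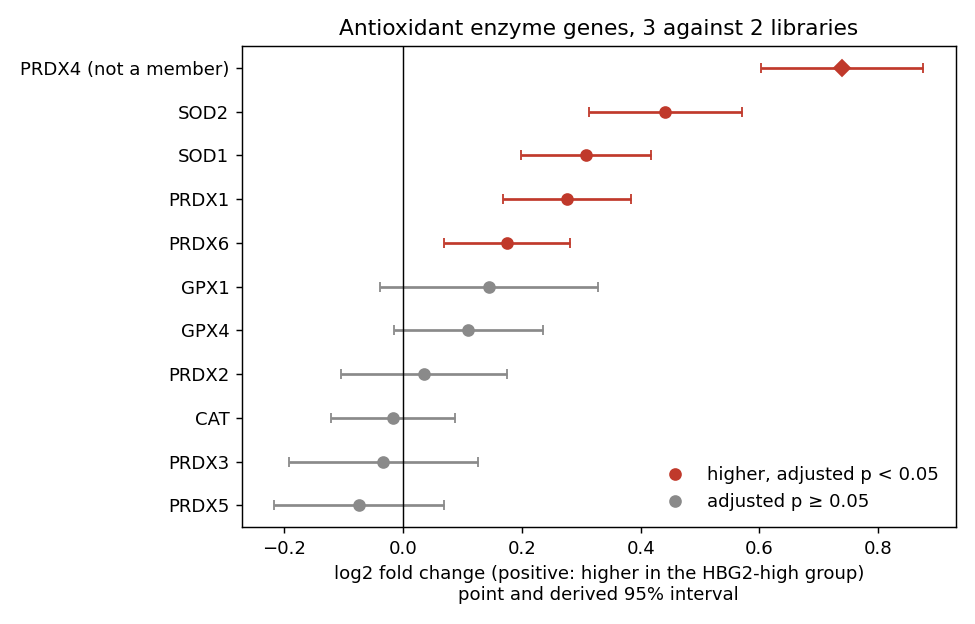
Log2 fold change of each antioxidant enzyme gene and of its relative PRDX4 (horizontal axis, positive where higher in the HBG2-high group), as points with derived 95% intervals. PRDX4, SOD2, SOD1, PRDX1 and PRDX6 lie wholly above 0, and the intervals of the other 6 enzyme genes span 0.

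The superoxide dismutases were both higher. SOD2 (ENSG00000112096, chromosome 6), the manganese enzyme of mitochondria, had a log2 fold change of 0.44 with an SE of 0.06 (95% interval 0.31 to 0.57, edgeR adjusted p = 0.000152) at a mean of 6.44 log2 CPM (authors' deposited table). Only 19.5% of all genes had a larger absolute log2 fold change than SOD2. SOD1 (ENSG00000142168, chromosome 21), the copper and zinc enzyme, stood at 0.31 with an SE of 0.05 (95% interval 0.20 to 0.42, edgeR adjusted p = 0.000549), and its mean was 8.32 log2 CPM (authors' deposited table). The intervals of SOD1 and SOD2 overlap, so these data do not order the pair. Each dismutase overlaps a gene on the other strand in GENCODE v29 (WTAP for SOD2), and that annotation names 3 pseudogenes of SOD1 and 1 of SOD2. On its own strand SOD2 overlaps 3 other entries, among them another entry also named SOD2, and SOD1 overlaps 1. No source used here says whether counting used strand, so some reads of these genes could belong to neighbours or copies.

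Among the cytosolic peroxiredoxins PRDX1 and PRDX6 passed the threshold and PRDX2 did not, and the intervals of all 3 overlap. PRDX1 (ENSG00000117450, chromosome 1), a cytosolic peroxidase with 2 catalytic cysteines, had a log2 fold change of 0.28 with an SE of 0.05 (95% interval 0.17 to 0.38, edgeR adjusted p = 0.00098, authors' deposited table). PRDX2 (ENSG00000167815, chromosome 19), its close paralogue and among the most abundant proteins of the mature red cell, stood at 0.03 with an SE of 0.06 (95% interval -0.11 to 0.18, edgeR adjusted p = 0.668, authors' deposited table). On the linear scale the PRDX2 interval runs from 0.93-fold to 1.13-fold. A difference between the paralogues was not tested. In GENCODE v29 PRDX1 shares bases with MMACHC on the other strand, and PRDX2 with HOOK2 on its own strand. Counting by strand would not part PRDX2 from HOOK2. The annotation also names 4 pseudogenes each of PRDX2 and PRDX3, so these values carry a like uncertainty. PRDX6 (ENSG00000117592, chromosome 1), which has 1 catalytic cysteine and also a phospholipase activity, stood at 0.17 with an SE of 0.05 (edgeR adjusted p = 0.011, authors' deposited table). PRDX6 is the called member nearest the threshold.

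The peroxiredoxins found in mitochondria were near 0. PRDX3 (ENSG00000165672, chromosome 10), of the mitochondrial matrix, had a log2 fold change of -0.03 with an SE of 0.07 (edgeR adjusted p = 0.717, authors' deposited table). PRDX5 (ENSG00000126432, chromosome 11), which occurs in mitochondria, peroxisomes and the cytosol, had the lowest value of the 10 genes, -0.07 with an SE of 0.06 (edgeR adjusted p = 0.359, authors' deposited table). Its 95% interval, -0.22 to 0.07, leaves room for a difference of up to 0.86-fold. SOD2 and PRDX3 share the mitochondrial matrix, and their intervals do not overlap. By main compartment, 3 of 5 cytosolic enzymes (PRDX1, PRDX6 and SOD1, but not PRDX2 and GPX1) and 1 of 2 enzymes of the matrix were called higher, against 24.9% of all genes and 31.8% of genes of at least 5 mean log2 CPM. With so few enzymes in each compartment, nothing is read from these counts.

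PRDX4 (ENSG00000123131, chromosome X) was the family member with the largest difference, at 0.74 with an SE of 0.06 (1.67-fold, edgeR adjusted p = 8.29e-06, authors' deposited table). This enzyme uses peroxide to help form disulfide bonds in the endoplasmic reticulum. Its interval, 0.60 to 0.88, lies above those of all 10 antioxidant enzymes. The other 7 names of these families that were looked up, SOD3, GPX2, GPX3, GPX5, GPX6, GPX7 and GPX8, were not analysed here.

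Catalase and the glutathione peroxidases did not pass the threshold. CAT (ENSG00000121691, chromosome 11), which splits hydrogen peroxide without a thiol partner, stood at -0.02 with an SE of 0.05 (edgeR adjusted p = 0.789, authors' deposited table). Its 95% interval, 0.92-fold to 1.06-fold, is the narrowest among the 10 genes on the log2 scale. GPX1 (ENSG00000233276, chromosome 3), the main cytosolic glutathione peroxidase, stood at 0.14 with an SE of 0.08 (edgeR adjusted p = 0.169, authors' deposited table). It has the widest interval of the 10 genes, -0.04 to 0.33, which includes the values of PRDX1, PRDX6 and SOD1. GPX4 (ENSG00000167468, chromosome 19), which reduces lipid peroxides in membranes, stood at 0.11 with an SE of 0.06 (edgeR adjusted p = 0.129, authors' deposited table). The value of PRDX6, 0.17, lies within the intervals of both GPX1 and GPX4, so a difference of that size is not shown to be absent.

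**Figure D2:**
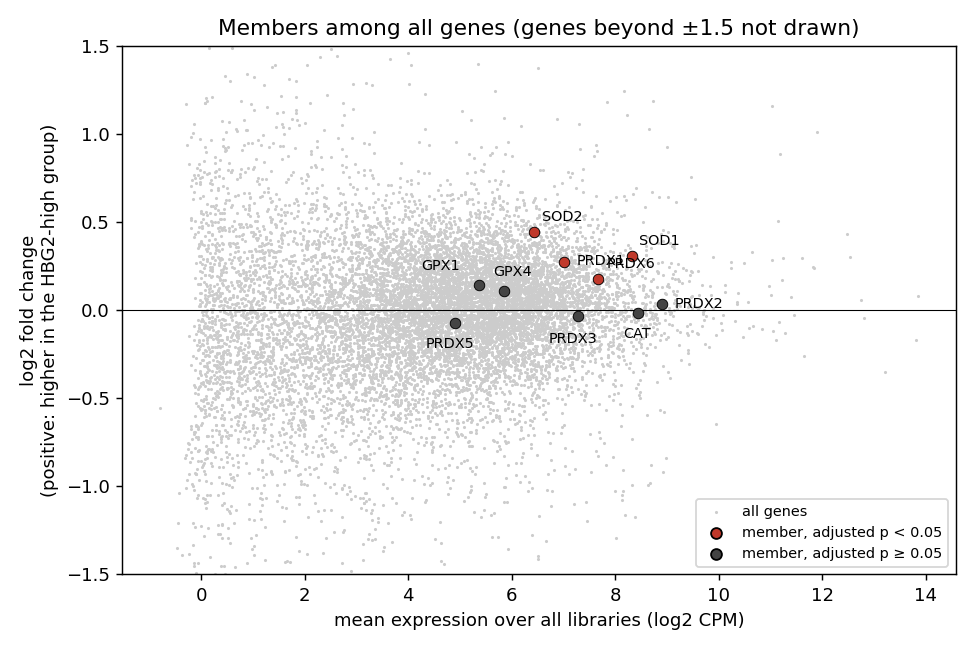
Log2 fold change (vertical axis, positive where higher in the HBG2-high group) against mean expression in log2 CPM (horizontal axis) for all genes in grey and the 10 antioxidant enzyme genes as labelled points, red where called; 117 genes beyond the axis limit of 1.5 are not drawn. The enzyme genes sit in the right part of the cloud, between 4.90 and 8.90 log2 CPM, and within its vertical spread.

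Levels between genes were compared per kilobase, on the mean CPM over all libraries divided by transcript length from GENCODE v29. PRDX2 was highest at 228 CPM per kilobase over all exons of the gene, followed by SOD1 at 158 and CAT at 97.0, from the authors' deposited table. With the shortest principal transcript as length, the same 3 genes led in the same order, at 484, 330 and 152 CPM per kilobase. PRDX6 (85.4) and PRDX1 (84.6 CPM per kilobase over all exons) followed and exchanged places with the other length (115 and 126). PRDX3 came next at 45.5, and PRDX5 (33.5), GPX1 (28.7) and GPX4 (28.7 CPM per kilobase over all exons) lay close together. With the shortest principal transcript their order turned, with GPX4 at 62.9, GPX1 at 35.7 and PRDX5 at 33.5 CPM per kilobase. SOD2 cannot be placed: it stood at 5.26 CPM per kilobase over all 16493 exonic bases and at 87.5 over the shortest principal transcript of 990 bases. The spread of these levels over libraries is not known, so no neighbouring levels can be told apart by a test. Of the 3 most abundant genes per length, SOD1 alone was called different between the groups.

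**Figure D3:**
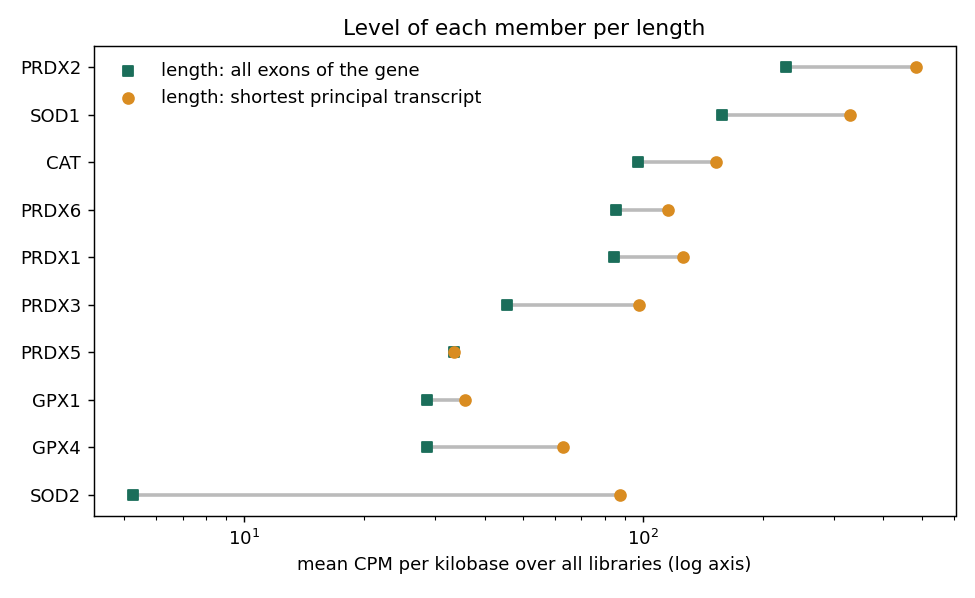
Mean CPM per kilobase over all libraries for each antioxidant enzyme gene (horizontal log axis), with length taken from all exons (squares) or from the shortest principal transcript (circles). PRDX2, SOD1 and CAT are highest with both lengths, and SOD2 moves from 5.26 to 87.5.

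The sequence before the start sites was searched because ERF binds ETS motifs. RefSeq windows (GRCh38.p14) of 250 bases before a start site were at hand for 7 of the 10 genes: CAT, GPX1, GPX4, PRDX2, PRDX3, PRDX5 and SOD2. The ETS core CCGGAA, on either strand, occurred in the windows of GPX1 and PRDX5, 2 of 7 genes. With only the window nearest each principal start the count is also 2, against 14.5% of all 35116 windows of this length. Neither gene passed the threshold. The genes without a window, PRDX1, PRDX6 and SOD1, were all called higher, and SOD2 is the only called gene among the 7 searched. The search therefore cannot show whether ETS cores go with called or uncalled genes. The sites are shown with their flanks, the core in capitals, on the strand of the gene.
GPX1, chr3:49358495-49358524, minus strand: gcctgctgctccTTCCGGcttaggaggagc
GPX1, chr3:49358378-49358407, minus strand: ggaccctcaggcCCGGAAaactgcctgtgc
PRDX5, chr11:64318047-64318076, plus strand: gaggcgtgggtcCCGGAAgctctgttctgc
In both windows 247 of the 250 bases lie in exons that GENCODE v29 annotates. The RefSeq start of GPX1 lies 247 bases from the start of its principal transcript there. Both GPX1 sites thus fall inside annotated exon and not before that start. The core of the antioxidant response element, TGACNNNGC on either strand, was in none of the windows of the 7 genes (10.9% of all windows), and neither was the GATA motif AGATAA (9.17%). The GC box GGGCGG, on either strand, was in the window nearest the principal start of all 7 genes, against 42.6% of all windows. Those 7 windows hold 60.4% (PRDX3) to 80.8% (SOD2) G and C. The shares over all windows were not matched for base composition or expression, so nothing particular to these genes is read from them.

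SOD2, the gene with the largest difference among the 10, has 6 GC boxes in the window nearest its principal start and no ETS core in any of its 4 windows. The exon-free part of that window, chr6:159693329-159693491 on the minus strand (163 bases, ending 88 bases before the start), is shown with its 3 GC boxes in capitals, the first pair overlapping.
SOD2: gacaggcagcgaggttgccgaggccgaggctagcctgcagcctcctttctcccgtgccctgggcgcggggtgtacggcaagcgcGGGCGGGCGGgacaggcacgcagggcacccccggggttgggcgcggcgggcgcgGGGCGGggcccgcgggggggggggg
The table counts by gene, so which start was in use is not known. These matches describe letters, not binding.

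The list of the thioredoxin system, which recycles oxidised peroxiredoxins, was split. It also holds the glutaredoxins GLRX, GLRX2, GLRX3 and GLRX5 and the methionine sulfoxide reductases MSRA and MSRB2. Its counts are therefore not counts of peroxiredoxin recycling alone. Among 15 measured genes, 5 were higher and another 5 lower, around a median log2 fold change of -0.01 (all genes -0.0019). For this and every list count below, the shares over all genes were 24.9% higher and 25.9% lower. The cytosolic pair was higher, with thioredoxin TXN at 0.24 and its reductase TXNRD1 at 0.19 in the authors' deposited table. Of the mitochondrial pair, TXN2 stood at -0.05 without passing the threshold and the reductase TXNRD2 was lower (-0.33) in the authors' deposited table. TXNIP, which binds and blocks thioredoxin, was lower at -1.09 (SE 0.05, edgeR adjusted p = 2.72e-07), the furthest from 0 in this list of the authors' deposited table. TXNRD3, a thioredoxin and glutathione reductase, was lower at -0.47 and GLRX5, a mitochondrial glutaredoxin for iron-sulfur clusters, was higher at 0.30, in the authors' deposited table.

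Sestrins, stress-inducible proteins tied to peroxide handling and mTORC1, also parted: SESN1 (0.30) and SESN3 (0.39) were higher and SESN2 (-3.35) lower in the authors' deposited table. SRXN1, sulfiredoxin, was not analysed here.

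In the list of glutathione synthesis, breakdown and use, which includes transferases that do not serve the glutathione peroxidases, genes were lower or not called. Glutaredoxins were counted in the thioredoxin list instead, where GLRX3 and GLRX5 were higher, GLRX lower and GLRX2 not called. Of 20 measured genes of the glutathione list, 10 were lower and 0 higher, also at an unadjusted p below 0.05 (edgeR). Their median log2 fold change was -0.16. Over all genes 25.9% were lower and 24.9% higher. The largest differences were in CHAC1, which degrades glutathione (-4.38), CTH, which makes cysteine (-3.21), and SLC7A11, which imports cystine (-2.46), in the authors' deposited table. All 3 are known targets of the ATF4 stress programme. GSTM4, a glutathione transferase with near-identical relatives and so uncertain, was lower (-1.01) in the authors' deposited table. The enzymes that build and reduce glutathione itself differed little: GSS was lower at -0.16, while GCLC (-0.08), GCLM (-0.17) and GSR (0.05) did not pass the threshold, in the authors' deposited table.

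The machinery that inserts selenocysteine at the TGA codons shown above had 4 of 9 measured genes lower and 2 higher (median log2 fold change -0.10). SECISBP2, which binds the selenocysteine insertion element of the messenger RNA, was lower at -0.83 (SE 0.05, edgeR adjusted p = 6e-07, authors' deposited table). SEPSECS, which makes selenocysteine on its transfer RNA, was lower at -0.46, and PSTK, the kinase before it, was higher at 0.34 in the authors' deposited table. SEPHS2, which activates selenium and is itself a selenoprotein, was lower at -0.26, while the elongation factor EEFSEC (-0.10) did not pass, in the authors' deposited table. Among 13 selenoprotein genes besides GPX1 and GPX4, 5 were higher and 4 lower (median log2 fold change 0.01). SEPHS2 is counted here again, and TXNRD1 (higher), TXNRD2 and TXNRD3 (both lower) were already counted in the thioredoxin list. SEPW1 (0.69) and MSRB1 (0.59), a methionine sulfoxide reductase, were higher, and TXNRD3 (-0.47) and SEPN1 (-0.36) lower in the authors' deposited table. The messenger RNAs of selenoproteins thus included higher and lower genes, with GPX1 and GPX4 not called.

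**Figure D4:**
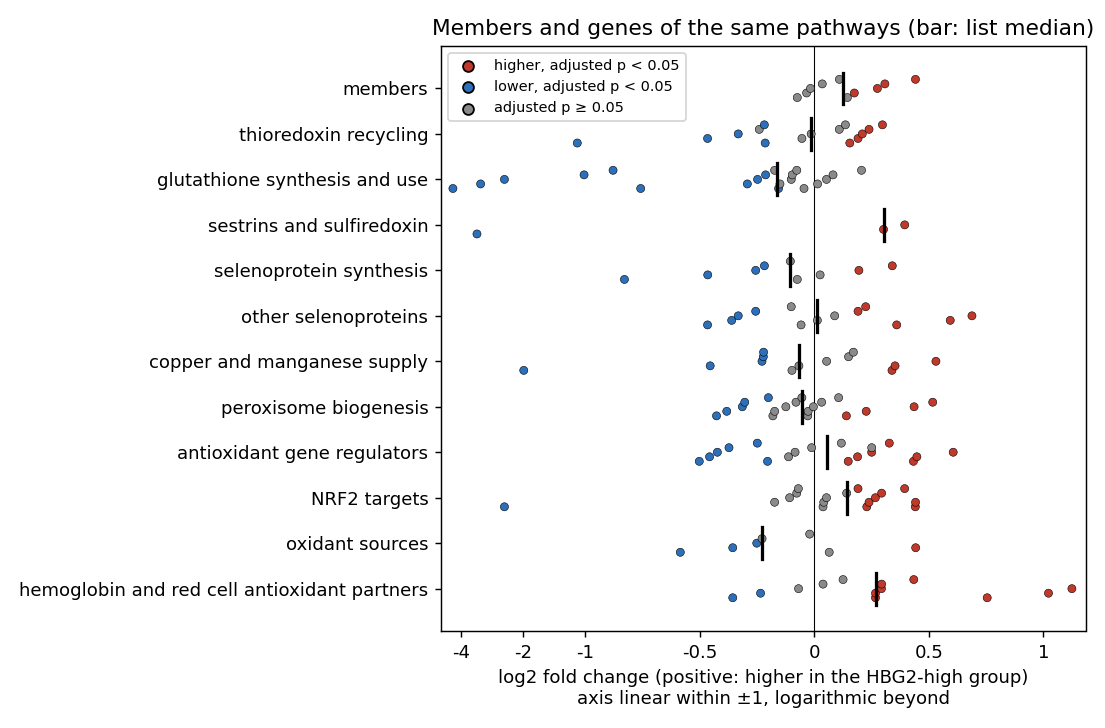
Log2 fold change of every measured gene (horizontal axis, positive where higher in the HBG2-high group; linear within 1 of 0 and logarithmic beyond) in the 10 antioxidant enzyme genes (top row) and 11 lists of related genes, coloured by call, with bars at list medians. The enzyme genes span -0.07 to 0.44, and the list of glutathione genes reaches -4.38.

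Genes that carry or bind copper and manganese, not all of which serve the dismutases, differed in both directions. Of 13 copper and manganese genes, 3 were higher and 5 lower (median log2 fold change -0.07). CCS, the chaperone that loads copper into SOD1, was lower at -0.23 while SOD1 was higher, in the authors' deposited table. The copper importer SLC31A1 stood at -0.07 and the manganese and zinc importer SLC39A14 at -0.10, neither of them called, in the authors' deposited table. SLC39A8, another manganese and zinc importer, named after its value was seen, was lower (-0.22, edgeR adjusted p = 0.00413, authors' deposited table). ATOX1, a copper chaperone for the secretory pathway, was higher at 0.34, and so was the metallothionein MT2A at 0.53, in the authors' deposited table. The mitochondrial carriers SLC25A39 (0.35) and SLC25A40 (-0.45), relatives of a yeast carrier needed for manganese loading of the mitochondrial dismutase, were called in opposite directions in the authors' deposited table.

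Catalase reaches peroxisomes through the receptor PEX5, which was lower (-0.20) in the authors' deposited table. Of 19 peroxisome genes, 4 were higher and 5 lower (median log2 fold change -0.05). The membrane transporter ABCD3 (0.52) and the assembly factor PEX3 (0.44) were higher, and PEX7 (-0.43) was lower, in the authors' deposited table.

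Transcription factors and sensors known to act on antioxidant genes included 7 higher and 6 lower of 18 (median log2 fold change 0.05). NFE2L2, which encodes NRF2, was lower at -0.50 (SE 0.05, edgeR adjusted p = 2.35e-05, authors' deposited table). FOXO3, a regulator of antioxidant genes in erythroid cells, was lower at -0.37 and its relative FOXO4 higher at 0.43, in the authors' deposited table. SP1, which binds GC boxes, was lower at -0.46, and the NF-kB subunit RELA, a known activator of SOD2, higher at 0.33, in the authors' deposited table. MAFK, a small partner of NRF2 and BACH1, was higher at 0.45, while KEAP1 (0.12) and BACH1 (-0.08) did not pass the threshold, in the authors' deposited table. RNA levels of these regulators do not measure their activity.

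Among 17 measured NRF2 targets, 8 were higher and 1 lower (median 0.14), against 24.9% higher and 25.9% lower over all genes. SQSTM1 (0.44), an autophagy receptor, TALDO1 (0.44), of the pentose phosphate pathway, and NQO1 (0.39), a quinone reductase, were higher in the authors' deposited table. SLC7A11 was the 1 lower target. TXN and TXNRD1 are on this list as well as on that of the thioredoxin system. GCLC, GCLM, GSR and SLC7A11 are also on the glutathione list, so these lists are not independent.

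Of 7 measured oxidant sources, 1 was higher and 3 lower (median log2 fold change -0.23). ERO1L, the oxidase that yields peroxide in the endoplasmic reticulum where PRDX4 acts, was lower at -0.36 (SE 0.04, edgeR adjusted p = 9.62e-05, authors' deposited table). The NADPH oxidase subunit NCF4 was lower at -0.25, and the catalytic subunit CYBB stood at -0.02 without passing, in the authors' deposited table.

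Hemoglobin and its protective partners had 8 of 13 genes higher and 2 lower (median log2 fold change 0.27), against 24.9% higher and 25.9% lower over all genes. HBD (1.37), HBA2 (1.06), HBA1 (0.75) and HBB (0.43) had the largest values in the authors' deposited table, and the α-globin copies share reads. AHSP, which keeps free α-globin from generating oxidants, was higher at 0.29, as was PARK7, a redox sensor, at 0.27, in the authors' deposited table. HAGH, of methylglyoxal removal, was lower at -0.36, while BLVRB, the flavin reductase of red cells, stood at -0.07 without passing, in the authors' deposited table.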

How the data were processed

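RNA of 5 HUDEP-2 samples was extracted with Trizol and sequenced from Illumina TruSeq libraries, per the labels' protocols. Tools used by the authors, per the submitters' processing notes, include edgeR 2.6.12, HTSeq, TopHat2 2.0.4, Cuffdiff and SAMtools on hg19 (GRCh37), without roles; no source used here gives the strand setting or filter. The table deposited by the authors holds, per its header, a log2 fold change, mean log2 CPM, F score, p-value and adjusted p-value per gene. Its 3 rows that name no gene hold 21.5% of CPM and were left out of counts. Deposited log2 fold changes were multiplied by -1 so that HBG2 is positive. SEs are the absolute log2 fold change over the square root of F, and 95% intervals use 10.3 degrees of freedom, solved from F and p; both are approximate, since the authors' edgeR fold changes are shrunken. This derivation was tested on simulated data that held the same relation of F, p and SE and no shrinkage. That test therefore cannot show how close the approximation is here. No model was refitted.

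The threshold was an adjusted p of 0.05. The members and 12 lists of related genes were chosen with earlier results of these data known, so no list was tested. Named list genes were up to 4 called genes with the largest absolute log2 fold change at 2 or more mean log2 CPM, and up to 4 whose role bears on a member; lists of 6 or fewer measured genes were named whole. Lists share some genes. Promoter windows came from RefSeq (GRCh38.p14), lengths, overlaps and coding sequence from GENCODE v29, matched by gene identifier; deposited values are on another build, so none of their coordinates is given. Python 3.11.15, scipy 1.17.1 and pandas 2.3.3 were used. Alternative adjustments, thresholds, centrings and filters were tried.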

Additional observations from a re-analysis of the deposited data

How the results depend on the processing

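Of 79 member values recomputed under 8 alternatives, 73 kept direction and side of the threshold, 6 lost the call and none changed direction. PRDX6 (0.17) lost it with an adjusted p threshold of 0.01 (adjusted p = 0.011) and with a minimum absolute log2 fold change of 0.2. Under Bonferroni adjustment SOD2 (0.44, edgeR, adjusted p = 0.176), SOD1 (0.31), PRDX1 (0.28) and PRDX6 (0.17) all lost it, so that 0 members were higher, and over all genes 314 were higher and 464 lower. Centring on the median of all genes or on genes of at least 5 mean log2 CPM, medians 0.04 apart, changed no call of a member.

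Of 224 counts, 182 stayed within 1.5 times. With a threshold of 0.01, selenoprotein synthesis had 1 higher, peroxisome genes 3 lower, regulators 4 higher and oxidant sources 0 higher. Under Bonferroni, higher and lower counts were 0 and 1 for the thioredoxin system and for selenoprotein synthesis, 1 and 0 for other selenoproteins and for peroxisome genes, 0 and 0 for metal supply and for oxidant sources, 0 and 2 for regulators and 2 and 0 for hemoglobin partners; 5 glutathione genes were lower, 0 sestrins higher and 1 NRF2 target higher. With a minimum of 5 mean log2 CPM, which leaves fewer genes, 1689 genes were higher and 1296 lower in all; higher counts were 1 for sestrins, selenoprotein synthesis and metal supply, 3 for other selenoproteins and regulators and 0 for oxidant sources, and lower counts were 2 for the thioredoxin system, 5 for glutathione, 1 for other selenoproteins and oxidant sources, 3 for metal supply and 0 for peroxisome genes. With the minimum fold change, thioredoxin genes had 3 higher and selenoprotein synthesis 1.

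No paired analysis was possible because the table holds no values per library; for the same reason leaving out a library was not run, and the depth of each is unknown.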
